A study of Homo sapiens with 4 samples.

Results

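The genes described here encode ligands with which a tumour cell engages immune receptors: ICOSLG, CD274, PDCD1LG2 and CD276 of the B7 family, CD47, the nectin family members PVR and PVRL2, the galectin LGALS9, and the stress ligands MICA and MICB. They are 10 of the 57820 gene models in the deposited tables and were found by their gene symbol. The set was chosen by function with the expression difference between BRD9 KO and LacZ control cells already known, ICOSLG being selected on its change in that comparison, so the values of the 10 genes are given as a description and carry no p. The study profiled G401, a line derived from a kidney rhabdoid tumour, by RNA-seq in 2 BRD9 KO libraries and 2 LacZ control libraries. The knockout was made with CRISPR-Cas9, in which a guide RNA directs the Cas9 nuclease, and LacZ names the control of the same cells, which carry the SMARCB1 loss of rhabdoid tumours in both groups. BRD9 is a bromodomain subunit of a SWI/SNF chromatin remodelling complex. G401 was the single line sequenced, and neither the day of harvest nor the guides behind these libraries are stated in the sources used.

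T cells and natural killer cells read such ligands through paired activating and inhibitory receptors. ICOSLG binds ICOS on T cells and is costimulatory, with a known role in follicular helper and regulatory T cells. CD274 (PD-L1) and PDCD1LG2 (PD-L2) bind PD-1 and restrain T cells, CD47 binds SIRPA on phagocytes and restrains engulfment, PVR and PVRL2 are read by the activating receptor CD226 and the inhibitory receptor TIGIT, LGALS9 binds TIM-3 (HAVCR2), and MICA and MICB activate NKG2D (KLRK1) on natural killer cells. CD276 (B7-H3) is found on many solid tumours. Interferon-gamma acting through JAK kinases is the best known inducer of CD274.

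The libraries held 15053247 to 19559290 estimated reads. BRD9 itself was at 22.9 and 18.7 TPM (transcript abundance normalised by RSEM for length and library size) in the KO libraries, against 34.5 and 38.9 TPM in the LacZ libraries, a log2 fold change of -0.86 ± 0.07 (SE, n = 2 each, adjusted p = 2.84e-09, edgeR quasi-likelihood test with Benjamini-Hochberg adjustment over 15288 genes). The transcript was thus lower but not lost in the KO libraries. Its level does not give that of the protein, whose loss after CRISPR-Cas9 in G401 the study showed by western blot. SMARCB1 was at 0 reads in all 4 libraries, the gene being known to be lost in this line, and the keratins KRT8 and KRT18 and vimentin (VIM) were among the abundant transcripts. Of 12 immune cell markers, 5 were at 0 in all 4 libraries (PTPRC, CD3D, CD3E, CD2 and MS4A1), and their summed level was 4.62 and 4.96 CPM (read counts scaled to library size) in the KO libraries, against 4.25 and 2.82 CPM in the LacZ libraries. Most of that sum was CSF1R, with 66 and 66 reads in KO and 42 and 35 reads in LacZ (log2 fold change 0.60 ± 0.23, adjusted p = 0.0434, edgeR). The CSF1R call was lost without KO replicate 2 (0.48) or either LacZ replicate (0.82 and 0.41), and in DESeq2, limma-voom and limma on log2(TPM + 1), and its part in the ligand values was not tested. In bulk RNA, fewer cells of a kind and less RNA per cell cannot be told apart.

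Promoters of 9 of the 10 genes were matched in RefSeq (assembly GRCh38.p14, the 250 bases before and 50 bases after each start). Those of the genes the values turn on are shown 5′ to 3′ on the strand of the gene, with motifs in capitals: ICOSLG because it shifted most, CD274 because it holds interferon-type motifs and had hardly any reads, and MICA and MICB because the neighbouring paralogs are compared. The motifs searched, on both strands, were the GC box GGGCGG, the CCAAT box CCAAT, the AP-1 site TGANTCA, the CRE core TGACGT, an ISRE-like site (TTTC, any 2 bases, TTTC), the GAS site TTCNNNGAA and the TATA box TATAAA.
ICOSLG, chr21:44240894-44241193, minus strand: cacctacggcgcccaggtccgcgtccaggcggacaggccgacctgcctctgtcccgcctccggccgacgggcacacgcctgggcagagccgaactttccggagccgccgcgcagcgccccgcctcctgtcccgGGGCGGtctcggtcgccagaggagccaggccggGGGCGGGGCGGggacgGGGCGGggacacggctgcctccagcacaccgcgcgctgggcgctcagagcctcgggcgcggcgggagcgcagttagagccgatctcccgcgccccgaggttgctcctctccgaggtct
CD274, chr9:5450292-5450591, plus strand: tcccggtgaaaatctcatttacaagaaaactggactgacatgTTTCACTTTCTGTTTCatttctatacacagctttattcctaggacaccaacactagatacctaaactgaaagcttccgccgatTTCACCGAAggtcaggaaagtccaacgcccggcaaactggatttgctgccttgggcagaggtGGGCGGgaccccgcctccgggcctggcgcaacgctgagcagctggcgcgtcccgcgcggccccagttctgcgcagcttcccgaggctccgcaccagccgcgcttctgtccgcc
MICA, chr6:31403345-31403644, plus strand: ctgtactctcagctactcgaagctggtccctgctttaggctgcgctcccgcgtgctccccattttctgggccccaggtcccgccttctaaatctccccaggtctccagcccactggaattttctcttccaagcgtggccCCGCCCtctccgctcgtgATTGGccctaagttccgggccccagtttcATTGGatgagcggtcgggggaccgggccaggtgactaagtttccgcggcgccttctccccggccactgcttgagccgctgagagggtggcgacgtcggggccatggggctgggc
MICB, chr6:31497895-31498194, plus strand: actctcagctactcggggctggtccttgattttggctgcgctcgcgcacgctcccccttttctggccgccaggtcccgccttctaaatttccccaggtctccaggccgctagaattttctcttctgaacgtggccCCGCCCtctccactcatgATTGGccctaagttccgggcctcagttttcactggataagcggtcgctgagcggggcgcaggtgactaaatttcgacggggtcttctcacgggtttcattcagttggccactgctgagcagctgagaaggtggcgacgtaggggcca
The ICOSLG window was 77% G and C and held 4 GC boxes, which began 117, 84, 79 and 68 bases before the start, the one at 79 overlapping the one at 84. It held none of the other 6 motifs searched. The CD274 window held 2 overlapping ISRE-like sites at 208 and 202 bases before the start, a GAS site at 125 and a GC box at 63. The LGALS9 window, which is not shown, also held an ISRE-like site, 9 bases before the start. The MICA and MICB windows were identical at 246 of 284 aligned bases (86.6%, with 32 gap bases) and shared a GC box and a CCAAT box in reverse orientation. MICA held a further CCAAT box 64 bases before its start, in a stretch where MICB did not match the motif. Over all 35116 promoters of this length in the table, 45.0% held a GC box, 34.6% a CCAAT box, 3.57% an ISRE-like site and 7.66% a GAS site. A match is a description of the letters and says nothing of binding in these cells.

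ICOSLG was the member with the largest difference, about 3 times as abundant in the BRD9 KO cells. It had 358 and 279 estimated reads in the KO libraries, against 83 and 99 reads in the LacZ libraries. Scaled for depth this was 18.4 and 17.1 CPM in KO, against 5.51 and 5.94 CPM in LacZ (means 17.7 ± 0.905 and 5.72 ± 0.306 CPM, SD, n = 2 each). Both KO libraries lay far above both LacZ libraries, and the gap between the groups was many times the spread within either. The log2 fold change was 1.63 ± 0.11 (SE), a fold of 3.09. Of all 15288 genes tested, 41 had a larger rise, and the size of the change exceeded that of 99.1% of them. As ICOSLG was selected on its change in this comparison, its rank and the gap between groups are descriptions only.

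The level of ICOSLG nevertheless remained modest. It was 5.53 and 4.46 TPM in the KO libraries and 1.53 and 1.55 TPM in the LacZ libraries, and its LacZ level was above that of only 10.2% of the tested genes. The credibility intervals that RSEM deposited for these levels ran over 4.36 to 6.69 TPM and 3.78 to 5.22 TPM in KO, and over 1.25 to 2.32 TPM and 1.30 to 2.28 TPM in LacZ, so that no KO interval met a LacZ interval. The effective length RSEM assigned to the gene was 5510 and 6353 bases in KO, against 5953 and 6304 bases in LacZ. These lengths overlapped between the groups, and the log2 ratio of mean TPM was 1.70, close to the value from counts. ICOSLG (ENSG00000160223.12) lies on the minus strand at chr21:45635265-45661329 (GRCh37). Of its 20369 distinct stretches of 75 bases of transcript, 25 (0.123%) also occur in another gene, and the posterior SD of its count was 0 in every library.

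**Figure D1:**
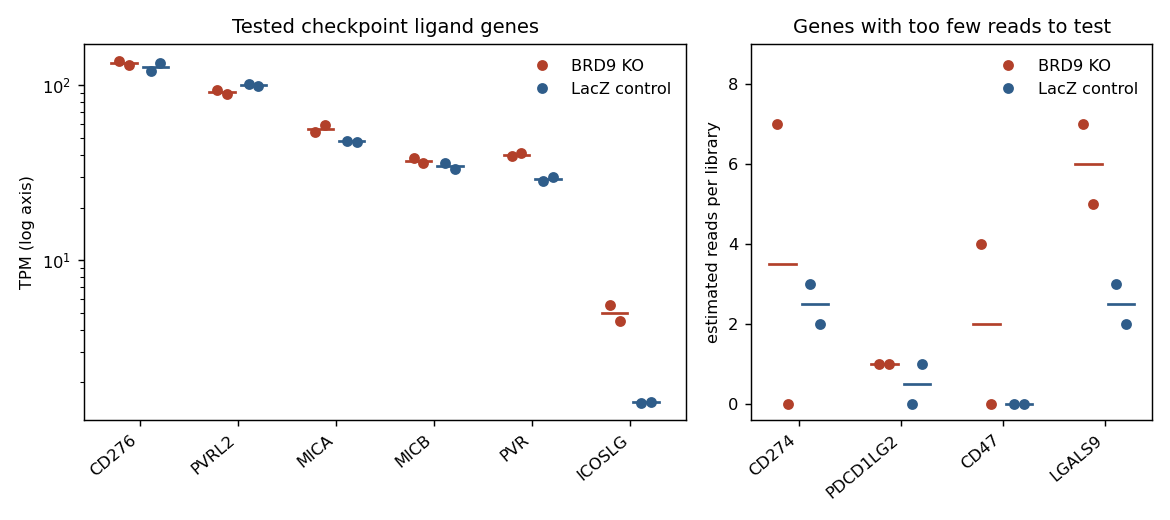
Levels of the 10 ligand genes in each library, BRD9 KO in red on the left of each pair and LacZ control in blue on the right, with points for libraries and bars for the mean of 2. The left panel gives TPM on a log axis for the 6 genes with enough reads to test, and the right panel gives estimated reads for the other 4 genes. ICOSLG shows the widest gap between groups, at 5.53 and 4.46 TPM in KO and 1.53 and 1.55 TPM in LacZ, and no library had more than 7 reads for any gene of the right panel.

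The other B7 ligands divided into an abundant gene and a pair of near-silent ones. CD276 was the most abundant member, at 137.6 and 130.2 TPM in the KO libraries and 120.1 and 133.4 TPM in the LacZ libraries, and these ranges overlapped. On the CPM scale it was at 153 and 155 in KO, against 144 and 149 in LacZ, with a log2 fold change of 0.07 ± 0.03 (SE, n = 2 each). CD276 made up 36.7% of the summed TPM of the 10 genes in KO and 37.3% in LacZ, whereas ICOSLG made up 1.37% in KO and 0.453% in LacZ.

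CD274 had 7 and 0 reads in the KO libraries, against 3 and 2 reads in the LacZ libraries. PDCD1LG2, its neighbour on chromosome 9, had 1 and 1 reads in KO, against 0 and 1 reads in LacZ. Both genes were thus at or near the level of single reads in every library. The ratio of KO to LacZ reads scaled for depth was 1.24 for CD274 (exact conditional 95% interval 0.338 to 4.94) and 1.76 for PDCD1LG2 (0.0919 to 104), intervals that cover counting error only. A difference was not detectable at this depth, where 3 reads correspond to 0.153 to 0.199 CPM. Neither gene shares an exact stretch of 75 bases of annotated transcript with another gene. Whether reads were placed elsewhere through near matches was not tested.

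Of the nectin family ligands, PVR was higher in KO and PVRL2 slightly lower. PVR, the poliovirus receptor, was at 39.2 and 41.1 TPM in the KO libraries, against 28.2 and 30.0 TPM in the LacZ libraries. The groups did not overlap, and the log2 fold change was 0.45 ± 0.04 (SE, n = 2 each), a fold of 1.37. PVR (ENSG00000073008.10, chr19:45147098-45169430, GRCh37) has exons that overlap those of CEACAM19 on the same strand, with 48 shared stretches of 75 bases of 11072. CEACAM19 had 65.5 and 73.9 estimated reads in KO and 71.9 and 76.7 reads in LacZ, and PVR had 1368 and 1113 reads in KO and 746 and 858 reads in LacZ.

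PVRL2 (nectin-2), which binds the same CD226 receptor as PVR, was at 93.5 and 89.0 TPM in the KO libraries, against 101.7 and 98.5 TPM in the LacZ libraries. Both KO libraries lay below both LacZ libraries, by a log2 fold change of -0.10 ± 0.03 (SE, n = 2 each). This small difference was not called under 6 of 14 alternative settings, which included DESeq2, limma on log2(TPM + 1), the analysis with no filter, and those without KO replicate 2 (-0.06), LacZ replicate 1 or LacZ replicate 2. PVRL2 lies at chr19:45349432-45392480 (GRCh37), on the same chromosome as PVR.

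The stress ligands MICA and MICB, which are MHC class I-like proteins that natural killer cells recognise through NKG2D, were both well expressed. MICA was at 54.01 and 59.0 TPM in the KO libraries, against 48.2 and 47.6 TPM in the LacZ libraries. MICB was at 38.2 and 36.0 TPM in KO, against 35.9 and 33.0 TPM in LacZ. MICA was higher in both KO libraries, by a log2 fold change of 0.25 ± 0.06 (SE), and MICB by 0.12 ± 0.05 (SE, n = 2 each). The ranges of MICB nearly touched, at 36.0 TPM in the lower KO library and 35.9 TPM in the higher LacZ library. MICA lies at chr6:31367561-31383092 and MICB at chr6:31462658-31478901 (GRCh37). No exact stretch of 75 bases is shared between their transcripts, and 23 of the 4129 stretches of MICA match a Y_RNA model. The posterior SD of the count was 1.05 and 0.91 reads in KO and 0.6 and 0.85 reads in LacZ for MICA. For MICB it was 1.06 and 0.91 reads in KO and 0.6 and 0.86 reads in LacZ. Sharing of reads between the 2 paralogs through near matches was not tested. The posterior SD of the estimated count was at most 0.158% of the count for any of the 6 tested members.

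CD47 and LGALS9 were close to absent. CD47 had 4 and 0 reads in the KO libraries, against 0 and 0 reads in the LacZ libraries, and no fold is given for it. LGALS9 had 7 and 5 reads in KO, against 3 and 2 reads in LacZ, a depth-scaled ratio of 2.12 (exact conditional 95% interval 0.695 to 7.67, counting error only). Both KO libraries of LGALS9 lay above both LacZ libraries, but the interval spans 1. LGALS9 shares 8% of its stretches of 75 bases with other models, among them AC015688.3 and LGALS9C, the latter at 0 reads in all 4 libraries. The posterior SD of the LGALS9 count was 0.28 reads in KO replicate 1 and 0 in KO replicate 2 and both LacZ libraries.

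Of the 10 members, 6 passed the filter on low counts (ICOSLG, CD276, PVR, PVRL2, MICA and MICB) and 4 did not (CD274, PDCD1LG2, CD47 and LGALS9). In the fit across all genes, 3 members were called higher in KO (ICOSLG, PVR and MICA), 1 lower (PVRL2), and 2 were not called (CD276 and MICB). Over all genes tested, 38.6% were called at an adjusted p under 0.05 by edgeR, 20.5% as higher and 18.1% as lower in KO. In CPM the groups did not overlap for 6 of 6 tested members, 5 of them higher and 1 lower, and they did not overlap for 68.6% of all genes tested. The median log2 fold change was 0.18 over the 6 tested members and -0.01 over all genes tested. Since the members were chosen with this comparison known, nothing is read from these counts.

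The order of the members by mean TPM was nearly the same in both groups. In KO it ran CD276, PVRL2, MICA, PVR, MICB, ICOSLG and LGALS9, followed by CD274, CD47 and PDCD1LG2 at 0.09 TPM or less. In LacZ MICB stood above PVR, at 34.5 and 29.1 TPM on average, whereas in KO PVR stood above MICB, at 40.1 and 37.1 TPM. The ranges of neighbouring members did not meet among the 6 tested genes in either group. Among the low members they met between CD274, CD47 and PDCD1LG2 in KO, and between CD274 and LGALS9 and between PDCD1LG2 and CD47 in LacZ.

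**Figure D2:**
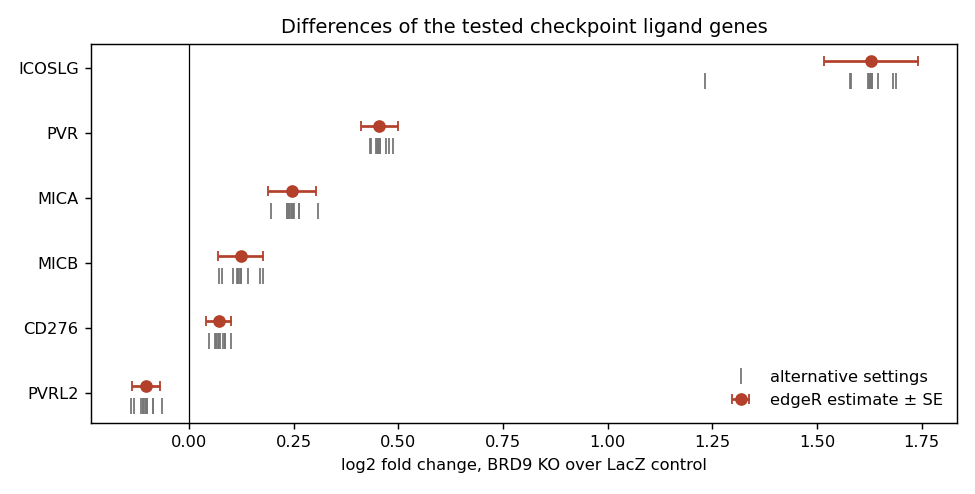
Log2 fold change of BRD9 KO over LacZ control for the 6 tested ligand genes, with the edgeR estimate and its SE as red points and the 14 alternative settings as grey ticks. Every setting keeps the sign of each gene, and the values of ICOSLG run from 1.23 (limma on log2(TPM + 1)) to 1.69, apart from those of the other genes.

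The nearest tested genes on each side showed what surrounds ICOSLG on chromosome 21. TRAPPC10, a subunit of a vesicle tethering complex, was at 74.6 and 67.4 CPM in the KO libraries, against 56.9 and 59.8 CPM in the LacZ libraries (log2 fold change 0.29 ± 0.05, adjusted p = 0.000135, edgeR quasi-likelihood test). PWP2, a ribosome biogenesis factor, had 45.2 and 47.9 CPM in KO, against 39.9 and 43.6 CPM in LacZ (0.15 ± 0.06, adjusted p = 0.0368, edgeR). Both fold changes were smaller than that of ICOSLG. The TRAPPC10 call was lost in limma on log2(TPM + 1), and the PWP2 call was lost without KO replicate 2 (0.12) or LacZ replicate 1 (0.10) and in 3 other settings. C21orf33, which ends 5.27 kb from ICOSLG, had a log2 fold change of 0.02 ± 0.04 (adjusted p = 0.687, edgeR). On the far side, AIRE (-0.42 ± 0.47, adjusted p = 0.514), the glycolytic enzyme PFKL (-0.01 ± 0.03, adjusted p = 0.854) and C21orf2 (0.17 ± 0.11, adjusted p = 0.245) did not pass the edgeR test either. AIRE had 12 and 9 reads in KO and 10 and 15 reads in LacZ, and could not have shown a small change.

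**Figure D3:**
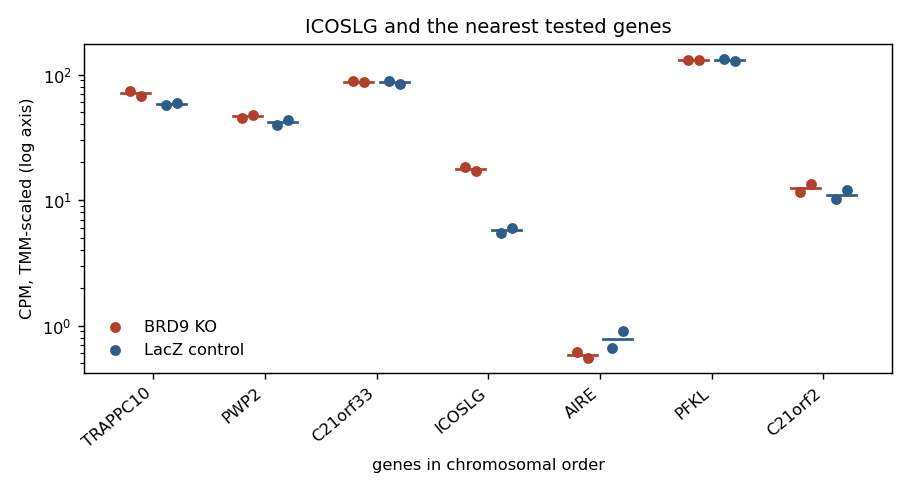
CPM on a log axis of ICOSLG and the 3 nearest tested genes on each side, in chromosomal order, BRD9 KO in red on the left of each pair and LacZ control in blue on the right, with points for libraries and bars for the mean of 2. ICOSLG is at 18.4 and 17.1 CPM in KO and 5.51 and 5.94 CPM in LacZ, while C21orf33 and PFKL on either side overlap between the groups.

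The genes whose pattern over the 4 libraries was most like that of ICOSLG were sought by the distance between log2 CPM values, set relative to the LacZ mean. The search covered 10795 genes of at least 5 CPM on average, after genes known only by a clone name were left out. Among the nearest were CYFIP2, an actin regulator (distance 0.144), INA, a neuronal intermediate filament (0.219), and TEX15 (0.313). CYFIP2 was at 98.4 and 93.9 CPM in the KO libraries and 30.8 and 29.6 CPM in the LacZ libraries. INA was at 17.1 and 19.04 CPM in KO and 6.10 and 6.06 CPM in LacZ. With 4 libraries in 2 groups the measure mostly reads the size of the difference, which was a log2 fold change of 1.68 for CYFIP2, 1.57 for INA and 1.45 for TEX15.

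Other genes of the same pathways were read from 9 lists of 100 genes in all, drawn up by function. For 99 a row was found and 44 had enough reads to test, while 31 were at 0 in all 4 libraries. Of the 44, 11 rose and 12 fell in KO, which is 52.3% called against 38.6% of all genes tested, with a median log2 fold change of 0.03 against -0.01. With DESeq2 the counts were 7 higher and 6 lower, and with limma on log2(TPM + 1) they were 4 and 7. In this and the following paragraphs a gene rose or fell when its adjusted p from the edgeR quasi-likelihood test, with Benjamini-Hochberg adjustment over all genes, was under 0.05.

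Among the other B7 and butyrophilin ligands, 7 of 16 were tested, of which 1 rose and 5 fell. The butyrophilins, of which BTN3A1 takes part in the response of gamma-delta T cells to phosphoantigens, made up the 5 that fell. All 5 lie in 1 cluster, within chr6:26365387-26476849 (GRCh37), and whether they changed separately was not tested. BTN3A2 was at 6.03 and 5.82 TPM in the KO libraries, against 10.2 and 10.6 TPM in the LacZ libraries (log2 fold change -0.98 ± 0.11, adjusted p = 7.96e-07, edgeR). BTN3A1 was at 5.25 and 4.80 TPM in KO, against 8.70 and 9.07 TPM in LacZ (-0.69 ± 0.11, adjusted p = 6.73e-05, edgeR), and BTN3A3 at 4.54 and 4.38 TPM in KO, against 7.45 and 6.61 TPM in LacZ (-0.46 ± 0.13, adjusted p = 0.00728, edgeR). All 3 of these paralogs were lower in both KO libraries, in the opposite direction to ICOSLG. They share 3.997% (BTN3A1), 8.09% (BTN3A2) and 9.23% (BTN3A3) of their stretches of 75 bases, mostly with each other, so some reads are split among them by estimate. The posterior SD of the estimated count was at most 1.77% of the count for BTN3A1, 2.43% for BTN3A2 and 2.38% for BTN3A3. The BTN3A3 call was lost in DESeq2 and without LacZ replicate 1 (-0.35). BTN2A2 (-0.19 ± 0.07, adjusted p = 0.0291, edgeR) lost its call when any 1 of the 4 libraries was left out (-0.18 to -0.19), in DESeq2, in limma on log2(TPM + 1) and with no filter. BTN2A1 (-0.21 ± 0.08, adjusted p = 0.0421) and the one that rose, NCR3LG1, a ligand of the natural killer receptor NKp30 (0.20 ± 0.07, adjusted p = 0.0394), are named after their values were seen. The call of NCR3LG1 was lost without any 1 of the 4 libraries (0.15 to 0.25), in DESeq2 and in limma on log2(TPM + 1). That of BTN2A1 was lost without KO replicate 2 (-0.14), LacZ replicate 1 (-0.18) or LacZ replicate 2 (-0.23), in DESeq2, limma-voom and limma on log2(TPM + 1), and with no filter. BTN2A1 and BTN2A2 share 72 stretches of 75 bases with each other. CD80, a ligand of CD28 and CTLA4, had 1 and 0 reads in KO and 1 and 1 reads in LacZ.

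The other NKG2D ligands were all too low to test, in contrast to MICA and MICB. ULBP2 had 9 and 10 reads in the KO libraries, against 3 and 3 reads in the LacZ libraries. ULBP3 had 9.62 and 8 estimated reads in KO, against 3 and 2.19 reads in LacZ. Both were higher in both KO libraries at counts of 10 or fewer, and no test was made of them. ULBP1 had at most 1 read in any library.

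Among 7 other nectins and nectin-like molecules, 2 were tested. PVRL1 (nectin-1), an adhesion partner of this family, was at 3.29 and 2.35 TPM in the KO libraries, against 1.42 and 1.82 TPM in the LacZ libraries, and rose (0.77 ± 0.19, adjusted p = 0.00251, edgeR). That call was lost in limma on log2(TPM + 1) and without LacZ replicate 1 (0.64). CADM4 was at 46.4 and 50.3 TPM in KO, against 53.9 and 57.6 TPM in LacZ, and fell (-0.17 ± 0.04, adjusted p = 0.00545, edgeR), a call lost without KO replicate 1 (-0.11) or LacZ replicate 2 (-0.15), and in DESeq2 and limma on log2(TPM + 1).

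Of 13 other galectins, 3 were tested and 1 rose. LGALS1, a secreted lectin that can induce T cell death, was at 455.8 and 476.9 TPM in the KO libraries, against 332.7 and 350.4 TPM in the LacZ libraries (0.43 ± 0.03, adjusted p = 5.59e-09, edgeR). It was thus far above its family member LGALS9 on the TPM scale. LGALS3, a ligand of LAG3, was at 150.6 and 153.8 TPM in KO and 145.1 and 144.8 TPM in LacZ (0.07 ± 0.03, adjusted p = 0.103, edgeR). LGALS8 had a log2 fold change of 0.08 ± 0.05 (adjusted p = 0.231, edgeR).

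No gene of the TNF superfamily list passed the edgeR test, of 4 tested from 9, with 1 at an unadjusted p under 0.05 and none called by DESeq2 or limma-voom. CD70, the ligand of CD27, was at 28.3 and 27.2 TPM in the KO libraries, against 23.3 and 24.0 TPM in the LacZ libraries (0.22 ± 0.10, adjusted p = 0.0900, edgeR). TNFSF9, the ligand of 4-1BB, was at 21.6 and 20.02 TPM in KO and 21.1 and 19.5 TPM in LacZ (0.03 ± 0.08, adjusted p = 0.813, edgeR). Both costimulatory ligands were above ICOSLG on the TPM scale in every library.

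Of the other inhibitory surface molecules and enzymes, 5 of 11 were tested. QPCTL, the enzyme that modifies the N terminus of CD47 so that SIRPA binds it, fell to 26.4 and 27.4 TPM in the KO libraries, against 32.0 and 35.5 TPM in the LacZ libraries (-0.20 ± 0.06, adjusted p = 0.0149, edgeR). Its call was lost in DESeq2, without KO replicate 1 (-0.15) and without LacZ replicate 2 (-0.16), and its substrate CD47 was almost without reads. HLA-E, the ligand of NKG2A on natural killer cells, was at 78.4 and 78.5 TPM in KO and 74.1 and 73.4 TPM in LacZ (0.08 ± 0.03, adjusted p = 0.0467, edgeR), a call lost in 10 of 14 settings, among them those without each of the 4 libraries (0.07 to 0.09). CEACAM1, a ligand of TIM-3, had 61.8 and 59.7 estimated reads in KO, against 18.3 and 39.6 reads in LacZ (0.91 ± 0.28, adjusted p = 0.0138, edgeR). On the TPM scale CEACAM1 was at 1.96 and 2.12 in KO and 1.81 and 1.87 in LacZ, so most of its difference was absent there (0.10 in limma on log2(TPM + 1)). Its call was also lost in DESeq2 and without KO replicate 2 (0.81) or LacZ replicate 1 (0.51).

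The genes of the interferon-gamma route, which induces CD274, were all expressed, whereas CD274 had 0 to 7 reads. All 16 genes of this list were tested, of which 5 rose and 3 fell. STAT3 was at 176.1 and 174.6 TPM in the KO libraries, against 107.1 and 109.9 TPM in the LacZ libraries (0.75 ± 0.02, adjusted p = 3.36e-17, edgeR). JAK1, the kinase shared by interferon and many cytokine receptors, was at 133.6 and 135.1 TPM in KO, against 108.5 and 106.5 TPM in LacZ (0.30 ± 0.02, adjusted p = 3.09e-10, edgeR). Both were higher in both KO libraries by far more than the replicates differed. CMTM4, a membrane partner that stabilises the CD274 protein, was at 54.6 and 53.5 TPM in KO, against 45.2 and 48.3 TPM in LacZ (0.23 ± 0.03, adjusted p = 2.66e-06, edgeR), a call lost in limma on log2(TPM + 1). SPOP, the adaptor of a ubiquitin ligase that degrades CD274, was at 82.5 and 79.6 TPM in KO, against 112.9 and 107.4 TPM in LacZ (-0.35 ± 0.03, adjusted p = 3.79e-08, edgeR).

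Further called genes of that list are named after their values were seen. SOCS1, the feedback inhibitor of JAK signalling, fell to 16.6 and 18.2 TPM in the KO libraries, against 28.4 and 25.9 TPM in the LacZ libraries (-0.65 ± 0.09, adjusted p = 1.51e-05, edgeR), and held its call in all 14 settings. CMTM6 (0.10 ± 0.03, adjusted p = 0.0201, edgeR) lost its call without KO replicate 2 (0.10) or LacZ replicate 2 (0.09), and in DESeq2 and limma on log2(TPM + 1). STAT2 (-0.19 ± 0.06, adjusted p = 0.0131, edgeR) lost its call without KO replicate 2 (-0.11), LacZ replicate 1 (-0.18) or LacZ replicate 2 (-0.20), and in the same 2 tools. The receptor subunits IFNGR1 (0.06 ± 0.08, adjusted p = 0.572) and IFNGR2 (0.09 ± 0.05, adjusted p = 0.153) did not pass the edgeR test.

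**Figure D4:**
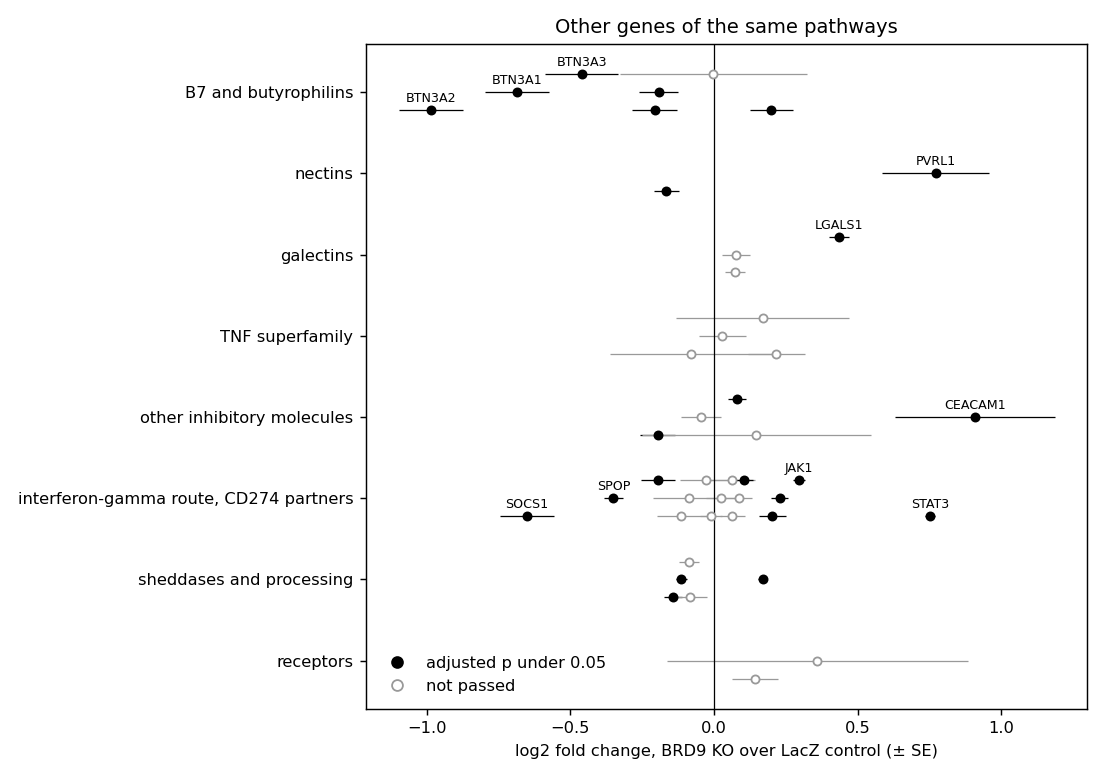
Log2 fold change of BRD9 KO over LacZ control with SE for the 44 tested genes of the functional lists, 1 row per list (the list of other NKG2D ligands had no tested gene). Filled points passed an adjusted p under 0.05 in edgeR and open points did not, and names are given for the filled points furthest from 0. The 3 BTN3A genes lie furthest to the left in the first row, and STAT3, PVRL1 and CEACAM1 furthest to the right of all rows.

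Of 6 enzymes that shed or process the MIC and B7 proteins, 5 were tested, of which 1 rose and 2 fell. ADAM9 was at 244.8 and 245.7 TPM in the KO libraries, against 220.2 and 215.0 TPM in the LacZ libraries (0.17 ± 0.02, adjusted p = 5.54e-08, edgeR). ADAM10, a sheddase of ICOSLG and of MICA, was at 52.9 and 53.5 TPM in KO, against 59.4 and 61.4 TPM in LacZ (-0.14 ± 0.03, adjusted p = 0.00105, edgeR), and its call was lost without LacZ replicate 2 (-0.10) and in limma on log2(TPM + 1). PDIA6, the disulphide isomerase that aids MICA shedding, was at 228.6 and 229.9 TPM in KO, against 245.5 and 246.5 TPM in LacZ (-0.11 ± 0.02, adjusted p = 8.49e-05, edgeR). These differences were small against that of ICOSLG.

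Of 15 genes listed as receptors or adaptors of lymphocytes and phagocytes, 7 were at 0 in all 4 libraries, among them ICOS, CD28, CTLA4, TIGIT and CD96. Not all of the 15 bind the ligands described here, and 2 had enough reads to test. Neither of the 2 passed in edgeR, at an unadjusted p under 0.05 or in limma-voom, and SIRPA did not pass in DESeq2, which gave no adjusted p for CD160. SIRPA, the receptor of CD47, was at 8.59 and 8.70 TPM in the KO libraries, against 7.69 and 7.87 TPM in the LacZ libraries (0.14 ± 0.08, adjusted p = 0.167, edgeR). CD160 had 17 and 8 reads in KO and 10.9 and 6 reads in LacZ (0.36 ± 0.52, adjusted p = 0.629, edgeR).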

How the data were processed

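RNA of G401 cells was sequenced in 4 libraries, 2 BRD9 KO and 2 LacZ control. The NEBNext Ultra kit used for total RNA does not mark strand, so reads of overlapping antisense genes cannot be told apart. STAR alignment to hg19 and RSEM quantification were run by the authors. DESeq2 is also named in the submitters' notes, and versions are not given there. The deposited expected count (estimated count) of a gene splits reads that match several genes and is not scaled between libraries. The deposited TPM is a level per effective length within a library. The authors' tables also hold RSEM's posterior mean count, used in 1 alternative, its posterior standard deviation, other columns such as effective length, and the bounds of a credibility interval of TPM. These deposited bounds were treated as scores, being made by RSEM's sampling and not summing like TPM.

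Expected counts were rounded and tested with the quasi-likelihood method of edgeR 4.0.16 in R 4.3.3 (TMM scaling, filterByExpr, robust dispersion, two-sided, Benjamini-Hochberg adjustment over 15288 genes). The code was tested on simulated data. CPM is TMM-scaled, and fold changes are KO over LacZ. Replicates differed by more than sampling noise (chi-square per degree of freedom 1.57 in KO and 1.60 in LacZ) and were kept apart. Whether separate cultures were used is not stated in the labels, and the p-values reflect no more than the spread of these libraries, which may be technical. Coordinates come from GENCODE v44 lifted to GRCh37, and promoters from RefSeq on GRCh38.p14, the builds being kept apart. Members were matched by symbol, PVRL2 being NECTIN2 in RefSeq.

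The members and all gene lists were chosen with earlier results of these data known. Named genes were the members, BRD9, from each list up to 4 called genes in order of p (with the 2 most abundant tested genes where under 2 were called), the 3 nearest tested genes on each side of ICOSLG, and the 5 genes most like it. Some of the genes so chosen are not reported here. Others are said to be named after their values were seen. Alternatives were RLE scaling, library totals, DESeq2 1.42.0, limma 3.58.1 (voom, and log2(TPM + 1)), posterior mean counts, no filter, a filter of 1 CPM in all libraries, a replicate block, and leaving out each library. CD24 was not analysed here.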

Additional observations from a re-analysis of the deposited data

How the results depend on the processing

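Each of the 6 tested members kept its sign in all 14 alternatives. The members were chosen with this comparison known, and the alternatives refit the same libraries. How often a member was called is therefore a description and is no support for its change. The log2 fold change of ICOSLG was 1.23 in limma on log2(TPM + 1), where the pseudocount of 1 compresses low genes, and at most 1.69 elsewhere. The call of ICOSLG and that of PVR held in all 14, that of MICA in 13, and CD276 and MICB were called higher in 2 each (CD276 with no filter and with the replicate block, MICB with no filter and without KO replicate 2). Over all genes the counts were 1885 higher and 1454 lower in DESeq2, and 1358 higher and 1106 lower in limma on log2(TPM + 1). Leaving out 1 library gave 2357 to 2694 higher and 1838 to 2268 lower, the fewest without LacZ replicate 2. For the listed pathway genes DESeq2 gave 7 higher and 6 lower, limma on log2(TPM + 1) gave 4 higher and 7 lower, and leaving out 1 library gave 7 to 9 higher (7 without KO replicate 2, LacZ replicate 1 or LacZ replicate 2) and 6 to 9 lower (6 without LacZ replicate 2). The cause of these differences in counts was not tested.

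Signs turned only for genes that had not passed the test. In limma on log2(TPM + 1) LGALS8 was at -0.0049 and PFKL at 0.038, and with no filter PFKL was at 0.0069. Leaving out 1 library gave -0.025 to 0.086 for TNFSF9, -0.13 to 0.93 for CD160, -0.029 to 0.015 for PFKL and -0.011 to 0.058 for C21orf33.

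Libraries with the same replicate number did not deviate together (r = -0.20 across 11225 genes, which are not independent replicates). Across all 15288 genes tested r was -0.05. Such a correlation cannot settle whether the samples were prepared in pairs. With the replicate block 3226 genes were higher and 2883 lower, and of the listed genes 11 and 12. The crossed pairing, added after the data were seen, gave 3167 and 2812. Depth limits CD274, PDCD1LG2, CD47 and LGALS9, whose ratios could not be measured to better than several-fold.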

Other observations

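The surroundings of CD47 on chromosome 3 were looked at after its near absence was seen, and the values are given without explanation. Among the 5 nearest protein-coding genes on each side, IFT57, whose nearer end lies 68.9 kb away, had 547 and 449 reads in the KO libraries and 470 and 527 reads in the LacZ libraries. KIAA1524 had 826 and 732 reads in KO and 654 and 694 reads in LacZ, and DZIP3 had 1416 and 1200 reads in KO and 1189 and 1312 reads in LacZ. MYH15, on the same side, had 6 and 5 reads in KO and 2 and 5 reads in LacZ. On the other side of CD47, BBX had 7 and 12 reads in KO and 5 and 4 reads in LacZ, and CBLB had 106 and 76 reads in KO and 88 and 74 reads in LacZ. HHLA2, a B7 family gene 205 kb from CD47, was at 0 in all 4 libraries, as were CCDC54, the adhesion molecule ALCAM and ZPLD1. The CD47 promoter window in RefSeq held 6 GC boxes and was 79% G and C.

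Other surface molecules with which lymphocytes engage target cells also had next to no reads. CD58, the ligand of CD2, had 0 and 0 reads in KO and 0 and 1 reads in LacZ. NT5E had 0 and 0 reads in KO and 1 and 0 reads in LacZ, CADM1 had 0 and 0 reads in KO and 2 and 0 reads in LacZ, and CD40 had 0 and 0 reads in KO and 1 and 0 reads in LacZ. These genes were picked from the lists after their values were seen.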
